A study of Mus musculus with 1920 samples.

Results

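The genes described here encode 4 families of enzymes that process xenobiotics: cytochromes P450 of families 1 to 4 (Cyp), glutathione S-transferases of the alpha, mu, omega, pi and theta classes (Gst), UDP-glucuronosyltransferases (Ugt) and sulfotransferases of families 1 and 2 (Sult). Members were the protein-coding genes whose symbols match these families and that had at least 1 read in at least 1% of the cells with 1000 or more detected genes. This left 75 of 134 matching genes, among 55471 genes listed. They comprised 38 of 80 Cyp genes, 19 of 20 Gst genes, 13 of 19 Ugt genes and 5 of 15 Sult genes. The cells were sorted from crypts of the small intestine as Lgr5high intestinal stem cells (ISCs) of B6.129P2-Lgr5tm1(cre/ERT2)Cle/J mice, which carry EGFP and CreERT2 at the Lgr5 locus, and this knock-in was shared by the young and the aged groups. There were 3 young mice (Young_1 to Young_3) and 4 aged mice (Old_1 to Old_4). No ages are given for these mice in the sources used here. The sort was made on crypt preparations for high GFP driven by Lgr5, and no villus sample was included.

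In the gut these families act in sequence on drugs, plant compounds, bile acids, steroids and products of lipid oxidation. P450 enzymes, fed with electrons by the reductase Por, add an oxygen to their substrate, and transferases then attach glutathione, glucuronic acid or sulfate, after which transporters such as Abcc2 and Abcg2 pump the conjugates out. Most of these enzymes are known from absorptive enterocytes and hepatocytes, where the nuclear receptors Nr1i2 (PXR) and Nr1i3 (CAR) and the factors Ahr, Nfe2l2 (NRF2) and Hnf4a control many of them.

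After 84 cells with few detected genes were removed, 1836 were kept, with a median of 305492 reads and 9398.5 detected genes, and the kept cells of a mouse together held 49447464 to 134408884 reads. The reads carry no molecular identifiers, so that a count of reads is not a count of molecules. Lgr5 itself was read at 177 to 451 CPM (reads scaled to the size of the library) in every mouse. Xist was read at 1314 to 1874 CPM in all 7 mice, and none of 4 genes of the Y chromosome exceeded 0.0172 CPM. To see which cells carried the enzymes, each cell was put in the class whose marker list had the highest mean log2(CPM + 1). The ISC list led in 1554 cells (84.6%) and the enterocyte list in 65 cells (3.54%), and these are called ISC-led and enterocyte-led cells. Only 9 cells lay near the cut between both classes. The enterocyte-led share was 0.27% to 2.5% in the young mice, 1.06% in Old_1 and 3.76% to 9.29% in Old_2 to Old_4. Summed over its 16 genes, the enterocyte list reached 1698 to 2142 CPM in the young mice, 1950.3 CPM in Old_1, 1923 CPM in Old_3, and 3246 and 3581 CPM in Old_2 and Old_4. Much of this sum is Mgam, at 809 to 1147 CPM in the young mice and 641 CPM in Old_3. Its log2 fold change by age was -0.05. The Paneth list of 10 genes summed to 8319.6 to 32094 CPM with overlapping groups, but the share of Paneth-led cells was 2.13% to 6.88% in young and 7.41% to 16.1% in aged mice. By age, 14 of 16 enterocyte, 9 of 10 Paneth, 8 of 8 goblet, 6 of 8 enteroendocrine and 2 of 17 ISC marker genes had a positive log2 fold change, with medians of 1.37, 0.61, 0.84, 2.14 and -0.29. No gene of either list was at 0 in all mice.

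Gst genes were the most widely read of the 4 families. Levels between genes are compared as CPM per kb of exon, averaged over 7 mice. Gsto1, an omega class transferase that reduces dehydroascorbate and releases protein thiols, stood first at 240 CPM per kb ± 28.1 (SD, n = 7 mice) and had a read in 99.2% of cells. Gstp1, the main pi class enzyme, followed at 95.1 ± 9.45 CPM per kb in 97.7% of cells. The mu class genes Gstm1 and Gstm3 came next at 66.3 ± 12.8 and 58.6 ± 22.5 CPM per kb. Gstm1 and Gstm3 lay within each other's spread, whereas the lowest mouse for Gsto1, at 212 CPM per kb, exceeded the highest mouse for Gstp1, at 114 CPM per kb. In all, 11 of 19 Gst genes were read in at least 50% of the cells.

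In the Ugt family, Ugt2b34 led at 39.4 ± 5.68 CPM per kb and had a read in 95.6% of cells. Ugt1a1, which conjugates bilirubin, averaged 19.3 ± 5.77 CPM per kb, and Ugt2a3 and Ugt2b35 stood at 8.81 ± 5.92 and 8.78 ± 1.17 CPM per kb. The last pair did not differ beyond their spread in level, although Ugt2a3 had a read in 33.6% of cells and Ugt2b35 in 69.9%. The 7 Ugt1a members share their 3′ exons and also overlap Gm20528 on the other strand. Counting genes on either strand, 17.3% (Ugt1a1) to 49.7% (Ugt1a6a) of their exon bases belong to no other gene. Their values depend on how reads in the shared exons were assigned, which is not given in the sources used here.

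Among sulfotransferases, Sult1d1, known for conjugating catecholamines, averaged 32.9 ± 11.2 CPM per kb and was read in 89.2% of cells. Sult1b1, which accepts thyroid hormones, followed at 17.4 ± 7.44 CPM per kb. Sult1a1, a phenol sulfotransferase, and Sult1c2 stood at 9.59 ± 4.91 and 7.52 ± 1.63 CPM per kb, within each other's spread.

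The P450 genes were patchier, and each of them averaged less per kb than the Gst genes named above. Cyp2e1, which oxidises ethanol and other small molecules, had the highest level at 33.5 ± 16.7 CPM per kb and a read in 62.4% of cells. Cyp2j6, a member of the epoxygenase group, averaged 18.1 ± 2.49 CPM per kb, Cyp4f14, an omega-hydroxylase of leukotriene B, 16.5 ± 7.42 CPM per kb, and Cyp4v3, a fatty acid omega-hydroxylase, 15.6 ± 4.77 CPM per kb. These 3 genes overlapped in their ranges. Only 6 of 38 Cyp genes were read in at least 50% of cells, and 14 in fewer than 10%. Cyp2c40 (23 cells, 1.25%), Cyp2c23 and Ugt2b1 (26 cells each, 1.42%) lay just inside the limit of 1%, and Cyp1a1, the classical target of Ahr, Cyp2d10 and Gstt4 (17 cells each, 0.926%) lay just outside it.

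**Figure D1:**
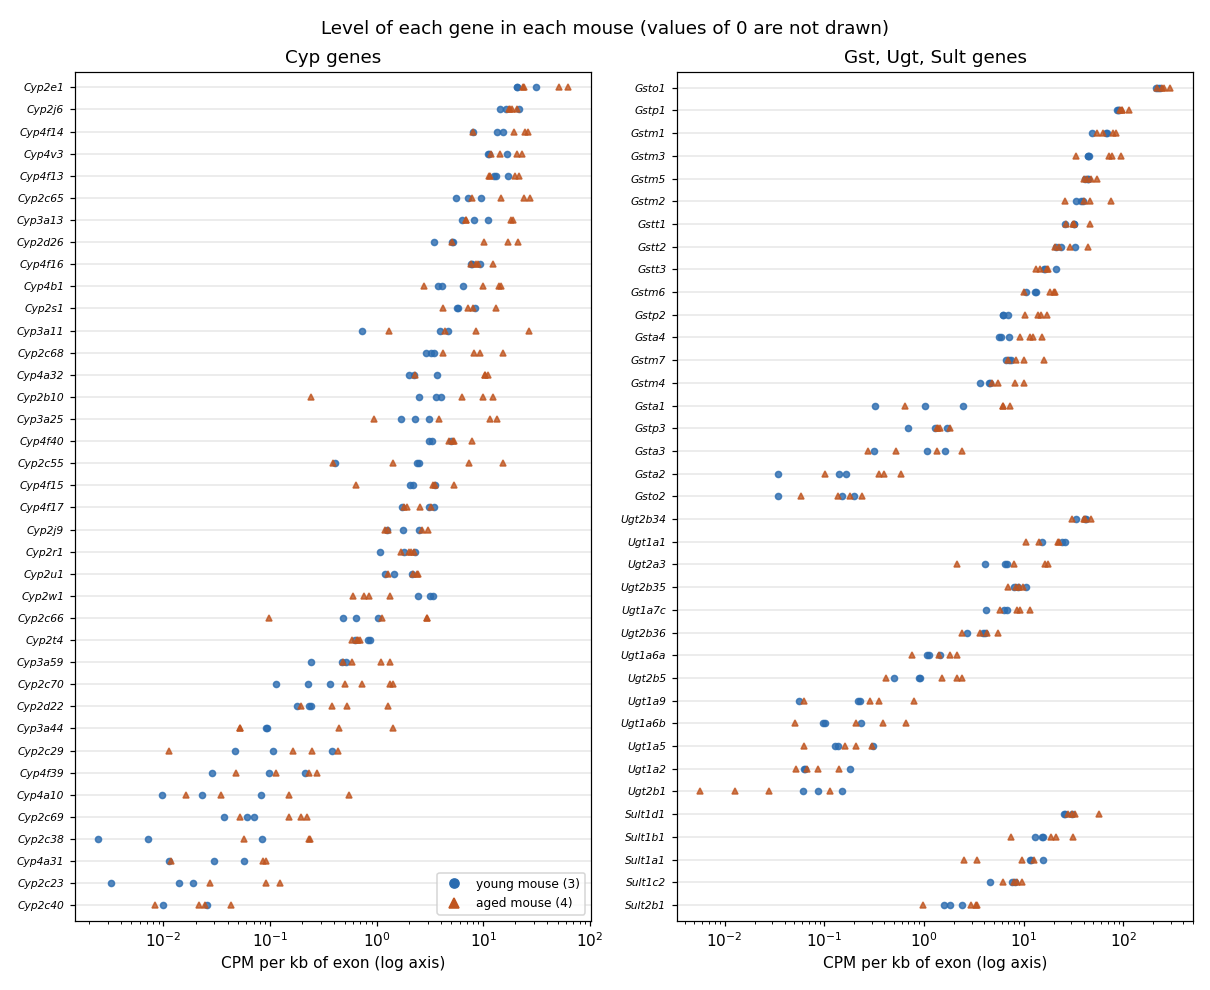
Each row is a gene and each symbol a mouse (blue circles, young; orange triangles, aged); the horizontal log axis gives CPM per kb of exon. Gsto1 is highest at 212 to 294 CPM per kb, and the spread between mice is wider for the low Cyp genes.

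The reads of the rarer P450 genes came from few cells. Taking the cells with the most reads first, 50% of all Cyp2e1 reads lay in 132 cells, whereas 8 cells held as much of Cyp2b10, 9 cells of Cyp3a11 and 2 cells of Cyp2c29. For Gsto1 and Gstp1 it took 385 and 387 cells. With each cell thinned to 100000 reads, which left 1732 cells and dropped 104 shallower ones, a cell had reads of a median of 25 of the 75 members (range, 2 to 54). The median was 24 in ISC-led, 22 in Paneth-led, 26 in goblet-led and 45 in enterocyte-led cells.

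Several members are near copies of each other. For each member, every 50-base stretch of its GENCODE transcripts was looked up in the transcripts of all other genes. In 48 of 75 members more than 90% of the stretches were found in no other gene, but in 11 members fewer than 50% were. Gstp2 had 45.7% of its stretches to itself and shared most with its neighbour Gstp1, Cyp2c68 had 56.7%, Cyp4a32 56.2% and Gsta1 only 9.5%, the latter mostly shared with Gm3776. Differences of these genes are uncertain to the extent that reads from copies were divided between them. Gstp1 and Gstp2 are shown because their values by age are given separately and so few bases tell their reads apart. Their coding sequences of 630 bases differ at 12 positions, of which 6 lie in the first 60 coding bases, printed here from the GENCODE transcripts with the differing bases in capitals.
Gstp1: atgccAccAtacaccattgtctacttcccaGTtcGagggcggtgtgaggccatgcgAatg
Gstp2: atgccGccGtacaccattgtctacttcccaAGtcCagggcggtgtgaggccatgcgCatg

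The comparison of aged with young mice asks whether enzyme levels in Lgr5high cells change with age. It was made on counts summed per mouse with edgeR's quasi-likelihood test. Of the 75 members, 72 passed the filter on low counts, whereas Cyp2c23, Cyp2c40 and Cyp4a31 did not. No member passed an adjusted p of 0.05, and neither did any of the 20957 genes tested (0.0%), of which 1098 had an unadjusted p under 0.05. With DESeq2, 205 genes were called. Among them were 6 members, 5 higher in aged mice (0.515% of all genes were) and Cyp2w1 lower (0.31% of all genes were). Those higher were Gstp2, Gsta4, Cyp2c68, Cyp2c70 and Cyp2d26.

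Most members leaned the same way. In edgeR's fit 62 of 72 (86.1%) had a positive log2 fold change, against 51.7% of all genes, and their median was 0.45 against 0.01. An unadjusted p under 0.05 was found for 14 members higher in aged mice (19.4%, against 2.7% of all genes) and 1 lower (2.54% of all genes). In 6 members every aged mouse exceeded every young mouse (8.33%, against 2.51%), and in 1 member every aged mouse was below (3.1% of all genes). Many members are neighbours in the genome or vary together over the same mice, so that these counts are not independent. By family, the median log2 fold change was 0.73 in 35 Cyp genes, 0.28 in 19 Gst genes, 0.43 in 5 Sult genes and 0.15 in 13 Ugt genes.

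How many members separated the groups depended on Old_1. Without it, 28 members were higher in each of the other 3 aged mice than in any young mouse, 11 Cyp, 11 Gst, 4 Ugt and 2 Sult genes, and 2 were lower, Cyp2w1 and Ugt2b1. In the same mice 5.76% of all genes were higher without overlap and 6.0% lower. Old_1 also had the lowest enterocyte-led share of the aged mice. Whether that share contributes was not tested. With the Paneth-led cells left out, 6 members separated the groups, against 7 with them. In sums per mouse, more cells of a type and more RNA per cell cannot be told apart.

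Gstp2, a pi class transferase (ENSMUSG00000038155, chromosome 19, 4040285 to 4046023, GRCm38), was the member with the lowest unadjusted p among those higher in aged mice. It was read at 6.85, 7.72 and 6.98 CPM in the young mice and at 11.6, 19.1, 16.7 and 15.5 CPM in Old_1 to Old_4. All aged mice, Old_1 included, were above all young mice. The means were 7.18 ± 0.465 CPM (SD, n = 3) and 15.7 ± 3.12 CPM (SD, n = 4), and the log2 fold change was 1.13 ± 0.23 (SE, edgeR adjusted p = 0.322, DESeq2 adjusted p = 0.000391). Cells share 5 library codes in their names, which the labels do not explain, and 3 of the codes held both ages. Within each of the 3 codes the aged mouse was higher. The pairs were Young_2 with Old_1, Young_1 with Old_3 and Young_2 with Old_2. These mice already separated by age, so that the direction within codes is no independent evidence. A Gstp2 read was found in 40% to 53.0% of the cells of a young mouse and 58.7% to 80.1% of those of an aged mouse, and after thinning in 26.0% to 32.7% and 50.6% to 65.4%. Its neighbour Gstp1 also separated the groups, at 135 to 140 CPM in young and 144 to 177 CPM in aged mice, but by a log2 fold change of only 0.19 ± 0.14 (SE).

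Gsta4, an alpha class transferase that conjugates the lipid peroxidation product hydroxynonenal, was read at 7.42, 7.21 and 9.06 CPM in the young and at 19.2, 14.6, 11.5 and 15.8 CPM in the aged mice. Here Old_1 was the highest mouse, and the groups did not overlap. The log2 fold change was 0.95 ± 0.23 (SE, edgeR adjusted p = 0.486, DESeq2 adjusted p = 0.0113). The mu class gene Gstm4 went from 6.18 to 7.90 CPM in young to 8.15 to 17.2 CPM in aged mice, with a log2 fold change of 0.75 ± 0.30 (SE, edgeR adjusted p = 0.891), and within 1 of the 3 shared codes the aged mouse was not higher. Gsta1 was low in the young mice (0.308 to 2.34 CPM) and in Old_1 (0.618 CPM) and reached 5.90 to 7.02 CPM in the other aged mice.

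Cyp2w1, a P450 known from the fetal gut and colorectal tumours (ENSMUSG00000029541, chromosome 5, 139352617 to 139357033), was the 1 member lower in all aged mice. It was read at 4.80, 3.71 and 5.16 CPM in the young and at 2.02, 1.29, 0.913 and 1.152 CPM in the aged mice. The gap between the groups held for Old_1 as well. The log2 fold change was -1.76 ± 0.35 (SE, edgeR adjusted p = 0.322, DESeq2 adjusted p = 0.000115). Within all 3 shared codes the aged mouse was lower, but these pairs reuse the same mice and are no independent evidence. Cells with a read made up 16.8% to 18.1% of a young mouse and 5.29% to 10.1% of an aged mouse, and after thinning 14.5% to 15.1% of a young mouse and 3.4% to 6.6% of an aged mouse.

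In the Cyp2c group, Cyp2c68 was read at 5.04, 5.95 and 5.62 CPM in the young and at 14.2, 26.6, 7.26 and 16.2 CPM in the aged mice, with no overlap and a log2 fold change of 1.54 ± 0.39 (SE, edgeR adjusted p = 0.512, DESeq2 adjusted p = 0.0131). Cyp2c70, which makes muricholic acids in mouse liver, was low, at 0.447, 0.728 and 0.225 CPM in young and 0.995, 2.67, 2.81 and 1.45 CPM in aged mice. Its log2 fold change was 2.08 ± 0.57 (SE, edgeR adjusted p = 0.604, DESeq2 adjusted p = 0.0161), on reads from 6.05% of cells. Cyp2c65, a metaboliser of arachidonic acid, reached 10.8 to 18.2 CPM in young mice and 15.0, 47.0, 28.5 and 52.7 CPM in Old_1 to Old_4, so that Old_1 lay among the young mice (log2 fold change 1.33 ± 0.40, SE, edgeR adjusted p = 0.694).

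Cyp2d26 and Cyp4a32 also had Old_1 among the young mice and the other aged mice above them. Cyp2d26 was at 6.22 to 9.25 CPM in young mice, 9.21 CPM in Old_1 and 18.2 to 38.3 CPM in the other aged mice, and its log2 fold change of 1.55 came to 0.78 in ISC-led cells. Cyp4a32, of the fatty acid hydroxylases, was at 3.12 to 5.63 CPM in young mice, 3.50 CPM in Old_1 and 16.0 to 17.0 CPM in the others. Cyp2e1 was at 44.8, 45.2 and 67.1 CPM in young and 52.1, 112, 50.5 and 134 CPM in aged mice, so that Old_2 and Old_4 stood apart while Old_1 and Old_3 lay within the young range (log2 fold change 0.73 ± 0.36, SE, edgeR adjusted p = 0.988). Cyp4b1, Cyp2d22, Cyp3a25 and Cyp4f40 had log2 fold changes of 1.13, 1.46, 1.65 and 0.60 with unadjusted p under 0.05 and overlapping mice.

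Ugt and Sult genes gave little separation. Ugt1a7c had a log2 fold change of 0.61 ± 0.26 (SE, edgeR adjusted p = 0.928), with Old_1 at 24.5 CPM inside the young range of 17.7 to 28.5 CPM. Ugt2a3 was at 8.75 to 14.4 CPM in young mice, 4.58 CPM in Old_1 and 17.1 to 37.2 CPM in the others (log2 fold change 0.93 ± 0.58, SE, edgeR adjusted p = 1.00). Sult1a1 was at 17.9, 17.3 and 23.8 CPM in young mice and 14.4, 19.0, 3.83 and 5.08 CPM in aged mice. Old_3 and Old_4 were low and Old_2 was within the young range, and the log2 fold change was -0.89 ± 0.50 (SE, edgeR adjusted p = 1.00). Cyp2e1, Cyp2c65, Cyp4a32, Cyp2c68, Ugt2a3 and Sult1a1 are in the study's own table of genes, which was drawn from these same cells, so that their direction here is not independent evidence.

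**Figure D2:**
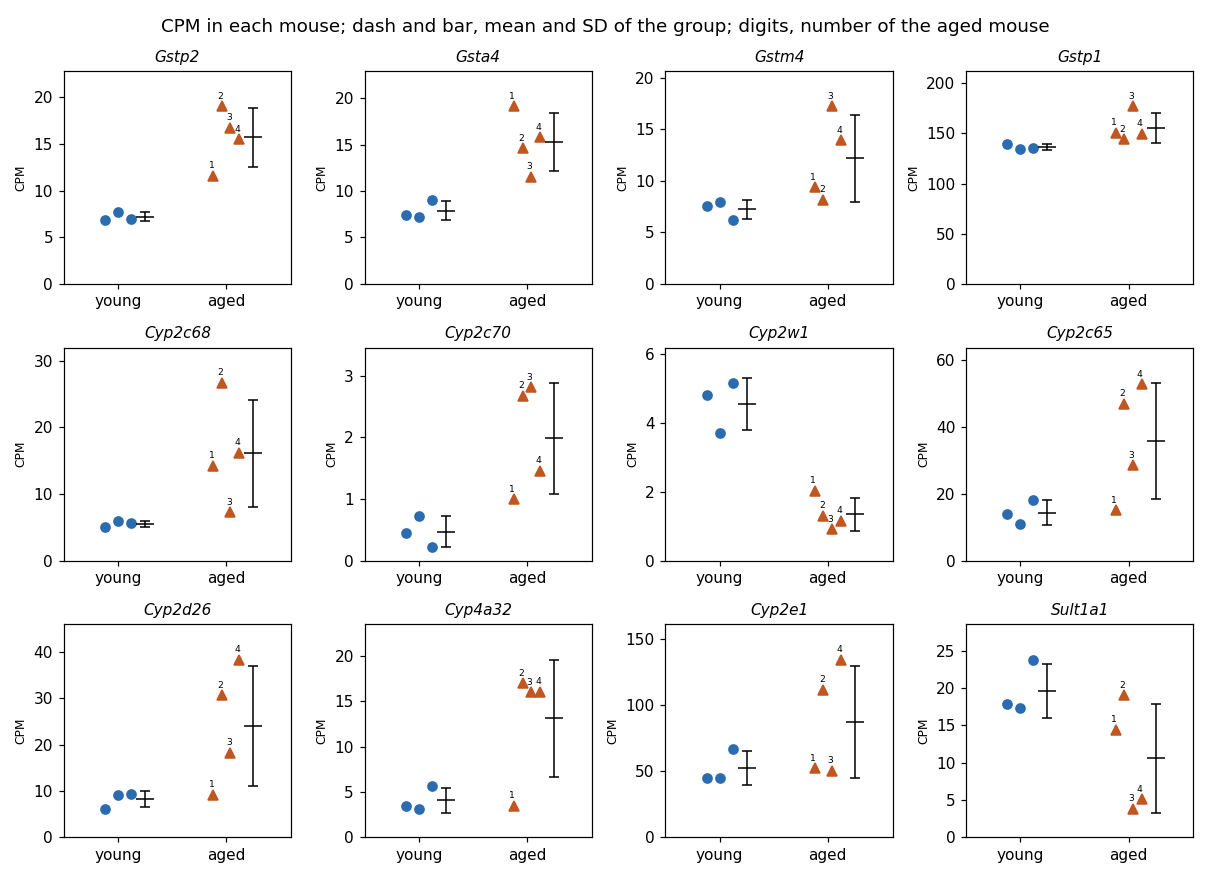
CPM of 12 members in each young (blue circles) and aged (orange triangles, numbered by mouse) mouse, on linear axes from 0, with the mean and SD of each group beside the points. Gstp2, Gsta4, Gstm4, Gstp1, Cyp2c68 and Cyp2c70 lie higher and Cyp2w1 lower in all aged mice, whereas Old_1 lies low for Cyp2c65, Cyp2d26 and Cyp4a32.

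Summed over a family, Cyp reads came to 445, 408 and 553 CPM in the young mice and 453, 849, 605 and 976 CPM in the aged mice, a ratio of means of 1.54. Old_1 lay among the young mice and the other 3 aged mice above them. The Gst sum was 1102 to 1185 CPM in young and 1145 to 1634 CPM in aged mice (ratio 1.18), the Sult sum 132 to 162 and 135 to 278 CPM (ratio 1.23), and the Ugt sum 269 to 334 and 260 to 385 CPM (ratio 1.07). Groups overlapped in each of the 4 sums.

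Levels of the enzymes were compared between enterocyte-led and ISC-led cells of the same mouse, with the mouse as a block. This was done in the 4 mice with at least 5 enterocyte-led cells (Young_3, Old_2, Old_3 and Old_4). The comparison asks which enzymes differ in the cells of the gate that are led by enterocyte markers. How these cells came to be in the gate was not tested. Of 73 members tested, 45 (61.6%) were higher in enterocyte-led cells and 4 were lower, against 10.6% of all genes higher and 10.6% lower, by edgeR with an adjusted p of 0.05. They comprised 25 Cyp, 11 Gst, 6 Ugt and 3 Sult genes. The rule that chose the members bears on this count. Cyp2c23, Cyp2c29, Cyp2c38, Cyp2c40, Cyp3a44 and Cyp4a10 had a read in fewer than 1% of ISC-led cells and reached the limit of 1% through other cells, whereas the background genes met no such limit. All 5 of them that were tested were higher. Of the other 68 members tested, 40 were higher and 4 lower, and these counts are a description. The median log2 fold change was 1.89 for the members and -0.28 for all genes, a shift that this scaling leaves in the whole table.

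Of the 8 largest rises, 7 were in P450 genes and 1 was in Gsta1. Cyp2b10, the classical CAR target, was read at 571, 403, 357 and 745 CPM in enterocyte-led cells of Young_3, Old_2, Old_3 and Old_4, and at 0.15, 0.50, 0.54 and 0.33 CPM in ISC-led cells. No mouse came near to overlapping, and the log2 fold change was 10.49 ± 0.44 (SE, edgeR adjusted p = 6.64e-12). Cyp3a11, the PXR target that oxidises many drugs, was read at 1851, 611, 467 and 3676 CPM in enterocyte-led and 0.51, 0.98, 4.29 and 4.11 CPM in ISC-led cells of the same mice (9.44 ± 0.66, SE, edgeR adjusted p = 2.61e-09). It had a read in 89.2% of enterocyte-led and 7.72% of ISC-led cells.

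Cyp2c29, Cyp2c23, Cyp3a25, Cyp2c66 and Cyp2d22 rose by log2 fold changes of 10.45, 8.07, 7.45, 7.31 and 6.74, and Gsta1 by 8.50. In each of them all 4 mice moved the same way. Cyp2c29 and Cyp2c23 rest on 189 and 37 reads in the enterocyte-led cells and on 4 and 5 reads in the ISC-led cells, so that the size of their folds is poorly fixed, and their membership itself rests on the enterocyte-led cells. Among genes that were also well read in ISC-led cells, Gstm3 rose by 3.68 ± 0.26, Sult1d1 by 2.36 ± 0.23 and Cyp2j6 by 2.26 ± 0.21 (log2, ± SE). Ugt2b34 rose by 1.73 ± 0.22 and Gstp2 by 1.48 ± 0.29. Gsto1 rose by only 0.62 ± 0.22, with an edgeR adjusted p of 0.0488, close to the threshold.

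In enterocyte-led cells 4 members fell. Cyp2e1 was read at 64.3, 111, 44.6 and 131 CPM in ISC-led and 4.36, 56.5, 12.1 and 30.3 CPM in enterocyte-led cells of Young_3, Old_2, Old_3 and Old_4, lower in every mouse (log2 fold change -2.03 ± 0.32, SE, edgeR adjusted p = 0.000124). After thinning, a Cyp2e1 read was found in 54.7% of enterocyte-led and 58.9% of ISC-led cells over all mice, shares that differed little. Gstm5 fell by 1.06 ± 0.26 and Gstt2 by 0.66 ± 0.21 on the log2 scale (SE, edgeR adjusted p = 0.00698 and 0.0280). The call of Gstt2 was lost with RLE size factors (adjusted p = 0.0568), in thinned cells (0.0654), without Old_2 (0.159) and without Old_4 (0.16). Cyp2w1 had 870 reads in ISC-led cells and 0 in enterocyte-led cells of these mice. Against 3 counts over the group it was at least 7.55-fold lower (edgeR adjusted p = 0.0165), a call lost without Old_4 (0.0757) and without Young_3 (0.0697). Not called in either direction were 24 members, among them Cyp4a32, Cyp2c70, Gstm2 and Sult1a1. In 3 members, Cyp3a11, Cyp2c66 and Gsta1, the difference between the classes itself differed by age, against 0.967% of all genes, with a single young mouse behind it.

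**Figure D3:**
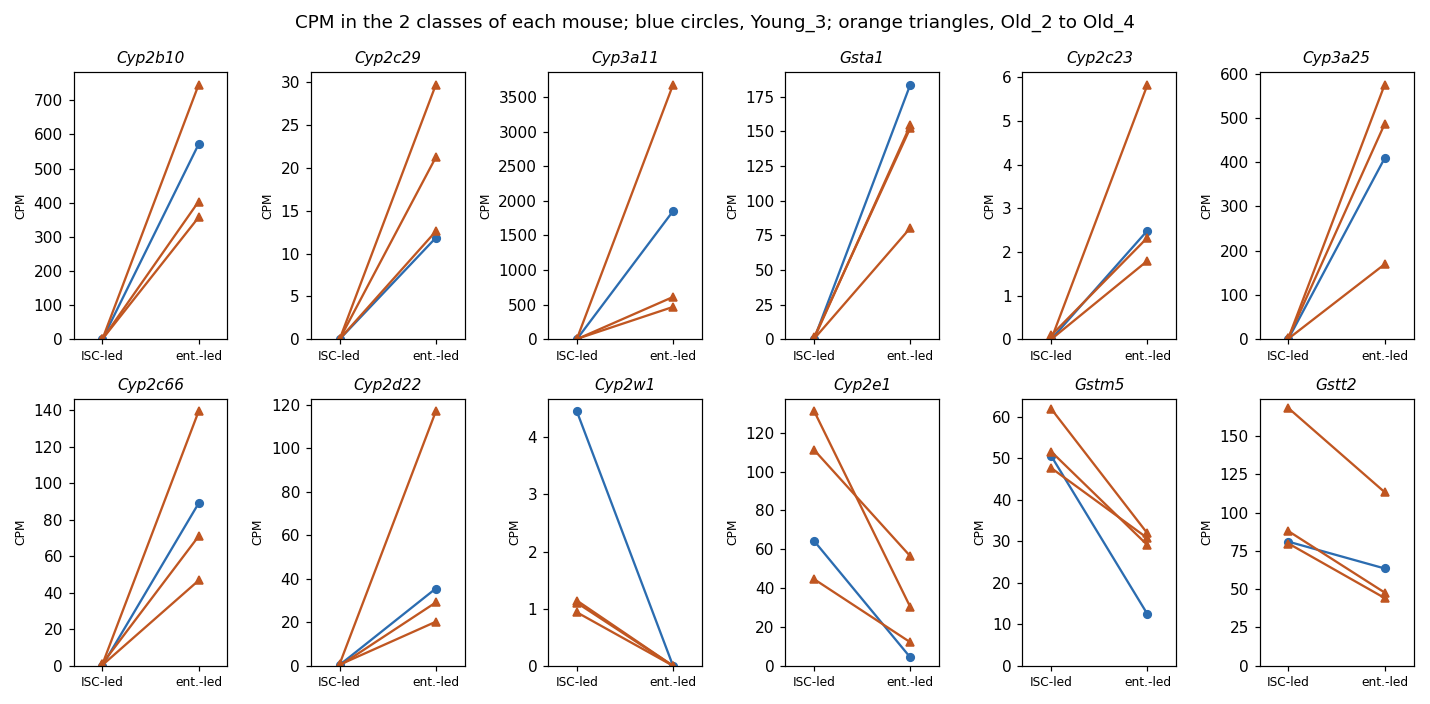
CPM of the 8 members with the largest rise and the 4 with a fall, in ISC-led (left) and enterocyte-led (right, "ent.-led") cells of Young_3 (blue circles) and Old_2 to Old_4 (orange triangles), on linear axes from 0; a line joins the classes of a mouse. All 4 lines point the same way in every panel.

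Since the aged mice other than Old_1 held more enterocyte-led cells, the comparison by age was also made on ISC-led cells alone. None of the 68 members tested there was called by edgeR, and 10 were higher with an unadjusted p under 0.05 (2.26% of all genes were) and 2 lower (2.58% of all genes were). The median log2 fold change of these 68 members was 0.43 in all kept cells and 0.26 in ISC-led cells. For the 40 members higher in enterocyte-led cells the median went from 0.62 to 0.35, and 34 of 40 had a smaller value in ISC-led cells, whereas the other 28 went from 0.23 to 0.22 and 10 had a smaller value. Over all 2050 genes higher in enterocyte-led cells the median went from 0.13 to 0.05. These medians compare overlapping sets of the same cells and carry no test.

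Cyp2b10 went from a log2 fold change of 1.10 in all cells to -0.58 in ISC-led cells, Cyp3a13 from 0.57 to -0.53, Cyp2c55 from 1.77 to -0.16, Ugt2b5 from 1.07 to 0.01 and Cyp2d22 from 1.46 to 0.39. None of these 5 was called by edgeR in either set. In ISC-led cells Gstp2 was at 1.13 ± 0.23 (SE), Gsta4 at 0.86 ± 0.35, Cyp2c68 at 1.43 ± 0.47 and Cyp4a32 at 1.78 ± 0.56. Cyp2c70 was at 2.37 ± 0.65, Gsta1 at 2.38 ± 0.74 and Cyp2w1 at -1.69 ± 0.35. The values of Cyp2c70 and Gsta1 rest on reads in 5.86% and 3.28% of ISC-led cells. The members with the highest level of their families had values of 0.18 in all cells and 0.19 in ISC-led cells (Gsto1), 0.03 and 0.00 (Ugt2b34), 0.44 and 0.37 (Sult1d1) and 0.73 and 0.80 (Cyp2e1).

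**Figure D4:**
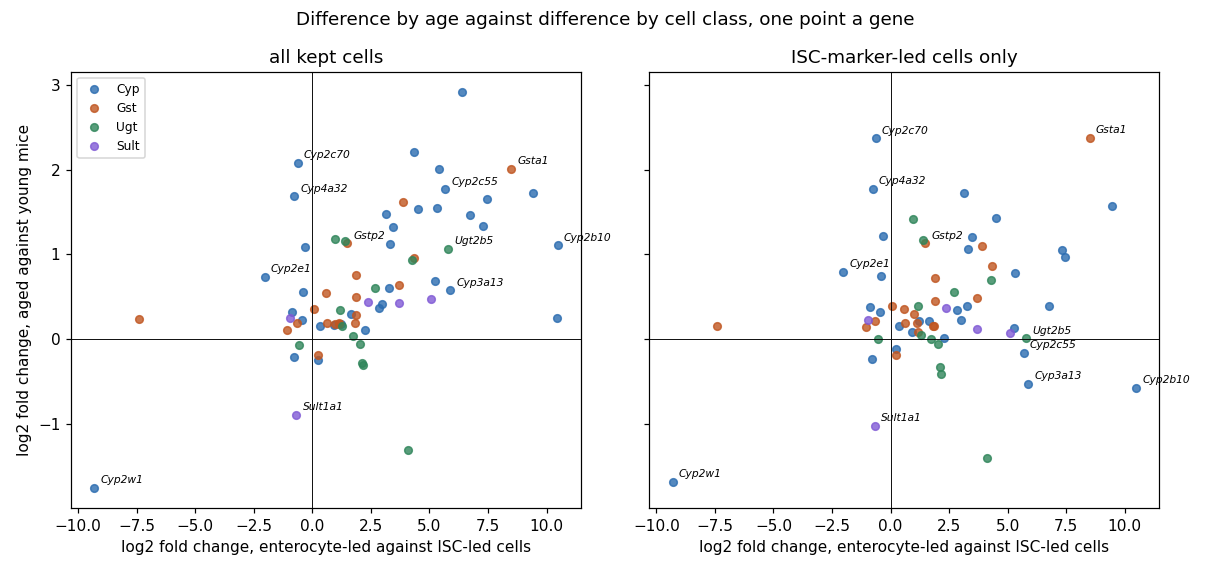
Each point is a member, coloured by family; the horizontal axis gives the log2 fold change of enterocyte-led against ISC-led cells and the vertical axis that of aged against young mice, in all kept cells (left) and in ISC-led cells only (right). Cyp2b10, Cyp3a13 and Cyp2c55 drop below 0 on the right while Gstp2 and Cyp4a32 lie at 1.13 and 1.78. The fitted horizontal values of Cyp2w1 and of Gsto2 (unlabelled, at -7.42) rest on 0 reads in enterocyte-led cells and are no bounds.

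Most members lie in gene clusters. In the Cyp2c cluster (chromosome 19, 39007019 to 40187333, GRCm38), 8 of 8 tested members had a positive fold change with age (median 1.505) and 7 of 8 were higher in enterocyte-led cells. All 4 members of the Cyp3a cluster on chromosome 5 (145345279 to 146113287, median 1.69), which does not include Cyp3a13, and all 3 members of the Gsta cluster on chromosome 9 (median 1.61) also had positive fold changes with age, and 3 of 4 and 3 of 3 were higher in enterocyte-led cells. In the Gstm cluster (chromosome 3, 107895821 to 108044894) 7 of 7 members were positive, with a median of 0.50. The Ugt1a locus on chromosome 1 had 4 of 7 positive and the Ugt2 cluster on chromosome 5 had 4 of 6. Over all genes, 51.7% had a positive fold change with age and 10.6% were higher in enterocyte-led cells. Cyp2c29, Cyp2c38 and Cyp3a44, counted among those higher, had a read in fewer than 1% of ISC-led cells. They became members through other cells, so that their class calls follow in part from that rule. Reads shared between near copies can make neighbours look alike.

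Promoters were examined for what the members hold in common. RefSeq promoters (GRCm38.p6, 250 bases before to 50 after the start) were matched for 66 of 75 members, without Cyp2c23, Cyp2d22, Cyp2u1, Cyp4a10, Cyp4a31, Cyp4f17, Gsta4, Gstt2 and Ugt1a6b. On either strand, the core of the antioxidant response element (TGACNNNGC) was present in 8 of 66 members and in 14.0% of all 27025 genes, and the core of the Ahr element (TNGCGTG) in 4 members and 5.84% of all genes. A TATA box (TATAAA) was present in 18 members (27.3%) and 15.7% of all genes. The HNF4 site CAAAGTCCA was present in 7 members (10.6%) and 0.555% of all genes. The 7 were Cyp2c40, Cyp2c65, Cyp2c68, Cyp2c69, Cyp2c70, Cyp3a11 and Sult1b1, of which 5 are neighbours in 1 cluster and related by descent. Of them, Cyp2c65, Cyp2c68, Cyp2c69, Cyp3a11 and Sult1b1 were higher in enterocyte-led cells, Cyp2c70 was not called and Cyp2c40 was not tested. Of all members tested 61.6% were higher, and of all genes 10.6%. A link between the site and the class of cells was not tested. A match describes letters and is no evidence of binding.

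The 60 bases around the site are shown for 5 of these genes, on the strand of the gene with the site in capitals, to show how far the likeness extends beyond it. Not printed are Cyp2c40, whose 60 bases are the same as those of Cyp2c69, and Sult1b1, whose match lies after the start. Starts are those of RefSeq. In GENCODE M21 the Cyp3a11 gene reaches to 145879964 on chromosome 5, so that its site lies inside the gene in that annotation. The windows are chr19:39060865-39060924 (Cyp2c65, plus strand), chr19:39741144-39741203 (Cyp2c68, minus strand), chr19:39886810-39886869 (Cyp2c69, minus strand), chr19:40187316-40187375 (Cyp2c70, minus strand) and chr5:145879929-145879988 (Cyp3a11, minus strand), and the site begins 116, 77, 75, 64 and 109 bases before the start.
Cyp2c65: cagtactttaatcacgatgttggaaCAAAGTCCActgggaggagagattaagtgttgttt
Cyp2c68: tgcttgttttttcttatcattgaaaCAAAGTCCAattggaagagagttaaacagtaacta
Cyp2c69: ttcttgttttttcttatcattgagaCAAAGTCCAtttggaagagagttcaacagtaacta
Cyp2c70: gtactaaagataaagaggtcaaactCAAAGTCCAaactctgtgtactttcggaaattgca
Cyp3a11: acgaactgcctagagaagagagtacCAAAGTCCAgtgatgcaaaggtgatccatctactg

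Cofactor enzymes, transporters and regulators of the same pathways were read beside the members, as a list of 52 genes. Of 51 tested by age, none was called by edgeR, whereas 8 were higher and 1 lower with an unadjusted p under 0.05 (2.7% and 2.54% of all genes), and the median log2 fold change was 0.14. DESeq2 called Ces1f. The carboxylesterases, which split ester drugs, were foremost: Ces2a was read at 44.7 to 46.1 CPM in young and 62.6 to 96.2 CPM in aged mice without overlap (log2 fold change 0.71 ± 0.18, SE, edgeR adjusted p = 0.521), and Ces1f at 2.03 to 4.63 CPM in young mice, 3.57 CPM in Old_1 and 20.3 to 28.6 CPM in the other aged mice. No efflux pump of the list was called. Abcg2 was at 45.0 to 49.0 CPM in young and 53.3 to 81.3 CPM in aged mice (0.58 ± 0.18, SE, edgeR adjusted p = 0.694), while Abcc2 was at 47.9 to 71.1 CPM in young and 33.6 to 47.3 CPM in aged mice (-0.50 ± 0.20, SE, edgeR adjusted p = 0.890). Abcb1a, Abcc3 and Abcc4 had log2 fold changes of -0.21, -0.44 and -0.57.

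Other list genes past an unadjusted p of 0.05 included Cyb5r3, Fmo1, Ces2c and Ces2e, with log2 fold changes of 0.53, 1.67, 0.82 and 1.03. Cyb5a (0.14) and Arnt (-0.25) separated the groups without overlap by small steps. The fold changes of regulators were Nr1i2 -0.18, Nr1i3 0.42, Hnf4a -0.03, Nfe2l2 0.13 and Ahr 0.58, none with an unadjusted p under 0.05. Between classes, 33 of 49 list genes tested were higher in enterocyte-led cells and 0 lower, against 10.6% of all genes in each direction. Among them were Papss2, which supplies the sulfate donor, at a log2 fold change of 7.36, Ugdh, which supplies UDP-glucuronic acid, at 3.04, Por at 1.82, Nr1i3 at 1.98 and Nr1i2 at 0.83. Hnf4a (-0.42) and Ahr (-0.50) were not called.

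Within ISC-led cells, members correlated weakly from cell to cell. Over the 45 members read in at least 20% of cells, the Spearman correlation between a pair, computed within each mouse and summarised by its median over 7 mice, had a median of 0.07 over 990 pairs. It exceeded 0.2 in 49 pairs and reached 0.31 at most, for Cyp2e1 with Cyp4a32 (0.18 to 0.35 in single mice). Next were Ugt1a7c with Ugt1a6a at 0.30, which share exons, and Gsto1 with Gstp1 at 0.29. All members of a cell share its depth and its conversion to cDNA, and weak correlations of sparse counts are given as a description. Cyp2e1 and Cyp4a32 were both higher in Old_2 and Old_4 than in any young mouse.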

How the data were processed

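Single cells were sequenced by a Smart-seq2 type protocol, single-end, without molecular identifiers. The authors aligned reads to GRCm38 with HISAT2, and the submitters' processing notes name HTSeq for counting; the deposited table holds raw read counts per gene and cell. The sources used here do not give annotation, strand setting or versions. Each column was tied to its mouse through the cell name in its label. Symbols and coordinates came from GENCODE M21, and 241 unmatched identifiers held 0.00279% of reads.

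Cells with fewer than 1000 detected genes (84) were dropped; no doublet caller was run. Reads were summed per mouse, or per mouse and class. The mouse was the replicate, so that the tests by age rest on the spread between these animals. Tests between classes, with the mouse as a block, rest on how the class difference varies over 4 mice. Tests used edgeR 4.0.16 (R 4.3.3; quasi-likelihood test with TMM scaling and filterByExpr, p adjusted by Benjamini-Hochberg and called at 0.05), after a check on simulated data; DESeq2 1.42.0 and limma 3.58.1 (log2(CPM + 1)) served as alternatives. Standard errors were obtained from the fold change and the F statistic. CPM are TMM-scaled; per kb values divide by the union of exons. Of 5 library codes in the cell names 3 held both ages, and the codes of Young_3 and Old_4 held 1.

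Members and lists were chosen with earlier results of these data known. Genes named were the 4 highest per family, those with an unadjusted p under 0.05 or without overlap by age, those in the study's table, the 8 largest rises and up to 5 falls between classes, those at the 1% limit, and list genes by the same criteria; Cyp3a13, Cyp2c55, Ugt2b5, Gstm2, Cyp2c69, Papss2, Ugdh, Por and the regulators given with values were added after their values were seen. A gene of the cofactor and regulator list is not reported here. Alternatives are named with their effects in the closing section.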

Additional observations from a re-analysis of the deposited data

Results flagged for a closer look

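In the 4 aged mice, 1 mouse stood far from the others by Dixon's criterion for Cyp4a32 (gap over range 0.924), where Old_1 lay at 3.50 CPM and the other 3 between 16.0 and 17.0 CPM, and for Sult1d1 (0.83), where Old_2 lay at 142 CPM and the others between 67.7 and 80.2 CPM. Of 43 groups of 4 examined, 2 stood out, and chance alone marks about 1 in 20.

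The difference between enterocyte-led and ISC-led cells itself differed by age for 3 members, Cyp3a11 (aged minus young, log2 -3.16 ± 0.63, SE; edgeR adjusted p = 0.000273), Cyp2c66 (-3.43 ± 0.65; 0.000118) and Gsta1 (-3.18 ± 0.62; 0.000196), as it did for 0.967% of all genes. In Young_3, ISC-led cells were lowest, at 0.51, 0.08 and 0.09 CPM, against 0.98 to 4.29, 0.42 to 1.26 and 0.25 to 1.37 CPM in Old_2 to Old_4. The young side is 1 mouse with 7 enterocyte-led cells, assumed to vary like the aged mice, so that age and this mouse cannot be told apart. DESeq2 called 1 of the 3, Cyp2c66, and leaving out each aged mouse gave 3 to 8 members, 8 without Old_3.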

How the results depend on the processing

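The count of genes called by age was 0 in edgeR and 205 with DESeq2, 22 with no filter on low counts, 15 in thinned cells, 18 with cells weighted equally (limma), 1 with the library code as a block and 0 to 8 when a mouse was left out (8 without Old_1); the cause was not tested. Members called were 0 throughout these, except 6 with DESeq2. Members without overlap numbered 7, 12 with cells weighted equally and 7 to 30 when a mouse was left out: 30 without Old_1 (11.8% of all genes, with fewer mice to separate) and 14 without Young_3 (10.9%). With the replicate number as a block 2 genes and 0 members were called; same-numbered mice correlated at r = 0.0305, 0.000944 and -0.0977, so the numbers do not pair them. Between classes, genes called fell from 4112 to 2217 without Old_4 (range 2217 to 4569), and members called numbered 38 to 52 under all alternatives. The class difference by age gave 3 members, 1 with DESeq2 and 3 to 8 without an aged mouse; these and the fit without Paneth-led cells were chosen after seeing the data. No fold change of a member named for its values by age reversed, but Cyp2b10, Cyp3a13 and Cyp2c55, none of them called, changed sign in ISC-led cells (-0.58, -0.53 and -0.16). The ratio of the Cyp sums was 1.23 in ISC-led cells and 1.36 to 1.73 when a mouse was left out. With 3 and 4 mice and enterocyte-led cells scarce (5 or more in 4 mice), the precision is limited, and low P450 genes rest on few cells.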
